A study of Mus musculus with 12 samples.

Results

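The genes followed were 10 members of the gp130 cytokine pathway in mouse: the receptor subunits Lifr, Il6st (gp130), Osmr, Cntfr, Il6ra and Il11ra1, the ligands Lif and Il6, the transducer Stat3 and the feedback inhibitor Socs3. They were taken by symbol, and all 10 were among the 27593 genes that could be joined between the annotations of the deposited count files. Of these, 9 were among the 13947 genes that passed the filter on low counts, and Lif did not pass. They were chosen by their counts per 1e6 counts of the library (CPM) in these same 12 libraries over the 4 groups, so their levels and differences are given as a description and no p-value is given for a member.

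Libraries came from cells labelled as monocytes from the meninges, the layers of tissue around the brain, of male C57BL/6J mice, with 3 libraries in each of 4 groups. The psilocybin, MDMA and vehicle groups were restrained for 18 days and then dosed, and tissue was taken 24 hours after dosing. Psilocybin is converted in the body to psilocin, which activates serotonin receptors, while MDMA, a substituted amphetamine, causes release of monoamines such as serotonin. The unstressed group was named so by its sample titles only, since the same protocol text, which describes restraint, stands with every sample. The sources used here give no age, dose or route, nor whether animals were pooled. Nothing in the labels says that replicates came from separate animals, so the spread between them may be partly technical.

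Cytokines of this family signal through gp130, a receptor chain found on nearly all cells. LIF joins gp130 to the LIF receptor, oncostatin M to the oncostatin M receptor or the LIF receptor, CNTF to the LIF receptor by way of CNTF receptor alpha, and interleukin-6 and interleukin-11 dock gp130 through their own alpha chains. The kinases JAK1, JAK2 and TYK2, bound to these chains, phosphorylate STAT3, which enters the nucleus and switches on genes that include Socs3. The SOCS3 protein then binds gp130 and the kinases and damps the signal. Monocytes carry the interleukin-6 receptor, and stromal and vascular cells are known sources of LIF and interleukin-6.

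Total gene counts ran from 807725 in vehicle replicate 2 to 5136953 in MDMA replicate 3. The vehicle libraries stood apart: 9523 to 13465 genes had a count there, against 14323 to 17928 in the 9 others, and their replicates correlated across genes at 0.477 to 0.614, against 0.8 or more within every other group. The unstressed libraries had been counted with a RefSeq annotation and the stressed ones under Ensembl identifiers, so in every comparison with unstressed mice the annotation cannot be told apart from the stress. Lifr was the only member with nearly the same exons in both annotations (10776 exonic bases in Ensembl and 10694 in RefSeq). For Il6st these were 11099 and 5452 bases, for Osmr 12113 and 5809, for Stat3 9455 and 4426, and for Cntfr 2782 and 8480. Summed over 8 defining markers, classical monocyte genes reached 203 to 749 CPM in psilocybin, 561 to 1150 in MDMA, 336 to 444 in vehicle and 263 to 418 in unstressed libraries. Vehicle replicates 1 and 3 had counts for only 3 and 5 of these markers, and every other library for 7 or 8. The vehicle sums thus rest on fewer genes. The 10 markers of choroid plexus epithelium, the tissue that secretes cerebrospinal fluid, summed to 65000 to 119000 CPM in psilocybin, 22900 to 44900 in MDMA, 13100 to 129000 in vehicle and 15600 to 40600 in unstressed libraries, so the summed choroid plexus markers exceeded the summed monocyte markers in every library.

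The sequences just before transcript starts of 3 members are shown because the levels of these members carry the description: Lifr differed most between groups, Il6st encodes the shared chain, and Socs3 is the textbook STAT3 target. They are from RefSeq on GRCm38.p6, read 5′ to 3′ on the gene's strand, and limited to the part of the 250 bases before a transcript start that overlaps no annotated exon. Lifr has transcript starts at separate places on the plus strand, and the upstream stretches are chr15:7129322-7129558 (Lifr a) and chr15:7140292-7140504 (Lifr b). The Il6st stretch is chr13:112463820-112464069 on the plus strand, and the Socs3 stretch is chr11:117969452-117969616 on the minus strand. By the gene spans given below, the Lifr and Socs3 stretches lie inside their genes, and only the Il6st stretch lies before its gene. Capitals mark a match to TTCNNNGAA, the palindromic core that STAT factors bind.
Lifr a: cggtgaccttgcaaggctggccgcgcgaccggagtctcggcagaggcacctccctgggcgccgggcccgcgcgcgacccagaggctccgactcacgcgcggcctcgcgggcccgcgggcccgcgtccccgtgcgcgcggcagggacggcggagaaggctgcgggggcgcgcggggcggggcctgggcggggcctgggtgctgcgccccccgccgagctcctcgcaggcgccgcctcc
Lifr b: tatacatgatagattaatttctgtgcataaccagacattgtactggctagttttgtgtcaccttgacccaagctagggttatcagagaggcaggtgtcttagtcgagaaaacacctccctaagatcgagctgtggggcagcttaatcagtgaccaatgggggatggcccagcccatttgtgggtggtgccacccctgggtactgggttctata
Il6st: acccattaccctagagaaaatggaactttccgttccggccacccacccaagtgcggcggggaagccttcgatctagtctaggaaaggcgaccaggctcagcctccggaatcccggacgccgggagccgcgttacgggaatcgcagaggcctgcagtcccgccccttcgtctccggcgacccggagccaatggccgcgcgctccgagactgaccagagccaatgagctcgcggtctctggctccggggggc
Socs3: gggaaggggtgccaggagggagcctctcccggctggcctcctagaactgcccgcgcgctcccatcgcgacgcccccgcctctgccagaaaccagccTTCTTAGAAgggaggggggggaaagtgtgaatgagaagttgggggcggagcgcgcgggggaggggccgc
The stretch Lifr a held 40 CpG dinucleotides at 82.7% GC, against 2 at 48.8% in Lifr b, and the Il6st stretch held 26 at 66.0%. All 10 members matched the RefSeq promoter table, with 17 windows of 250 bases between them. Of these windows 1 held the motif, that of Socs3, whose match starts 154 bases upstream, while 2306 of all 32851 windows, 7.02%, held it. The motif reads the same on both strands, and its absence from the Lifr and Il6st stretches says only that these letters are not there.

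Lifr, the signalling receptor chain for LIF, lies at chr15:7090614-7197489 on the plus strand of GRCm38. It was lower in each of the 9 stressed libraries than in any unstressed one. Lifr stood at 320.0, 363 and 407 CPM in the psilocybin libraries, 341, 165 and 261 in MDMA, 329, 368 and 924 in vehicle, and 1316, 1349 and 1941 in the unstressed libraries. Within the stressed groups the values overlapped, and vehicle replicate 3 alone stood between the others and the unstressed range. The means were 363 ± 43.4 CPM in psilocybin, 256 ± 88.0 in MDMA, 540.4 ± 333 in vehicle and 1536 ± 352 in unstressed libraries (SD, n = 3 each). The fitted log2 difference from unstressed was -2.08 ± 0.52 for psilocybin, a 4.23-fold lower level, -2.66 ± 0.53 for MDMA, a 6.32-fold lower level, and -1.20 ± 0.51 for vehicle (± SE). Raw counts of Lifr lay between 297 and 8745 per library, so counting error is small beside the spread of replicates.

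Vehicle replicate 3 lessened the distance between vehicle and unstressed libraries. Without it the log2 difference of Lifr was -2.13, near that of the drug groups. Over 15 alternative settings of the fit, the difference of vehicle from unstressed ran from -2.20 to -0.83. Psilocybin differed from vehicle by -0.89 ± 0.50 and MDMA by -1.46 ± 0.51 in log2 units, and without vehicle replicate 3 these were 0.07 and -0.50. Over 14 alternative settings the 1st ran from -1.26 to 0.15 and the 2nd from -1.79 to -0.41. Psilocybin stood 0.58 ± 0.50 above MDMA. In bulk samples fewer cells of a type and less RNA per cell cannot be told apart, and this holds for every level given. Summed markers of meningeal fibroblasts, cells that line these membranes, were 1890 to 3910 CPM in psilocybin, 6450 to 13300 in MDMA, 740 to 5810 in vehicle and 3850 to 6630 in unstressed libraries, with all 10 markers present in every group. Endothelial markers summed to 672 to 1180 CPM in psilocybin, 1170 to 1210 in MDMA, 996 to 1040 in vehicle and 1110 to 1920 in unstressed libraries. Mural cell markers summed to 2090 to 3790 CPM in psilocybin, 2720 to 3420 in MDMA, 2250 to 5050 in vehicle and 2670 to 5570 in unstressed libraries. The B cell list, with 7 of 8 markers measured, summed to 110 to 286 CPM in psilocybin, 182 to 252 in MDMA, 130 to 341 in vehicle, where Pax5 was at 0, and 447 to 559 in unstressed libraries, so it too was highest in the unstressed libraries without overlap. The part of any of these cells in the Lifr difference was not tested.

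**Figure D1:**
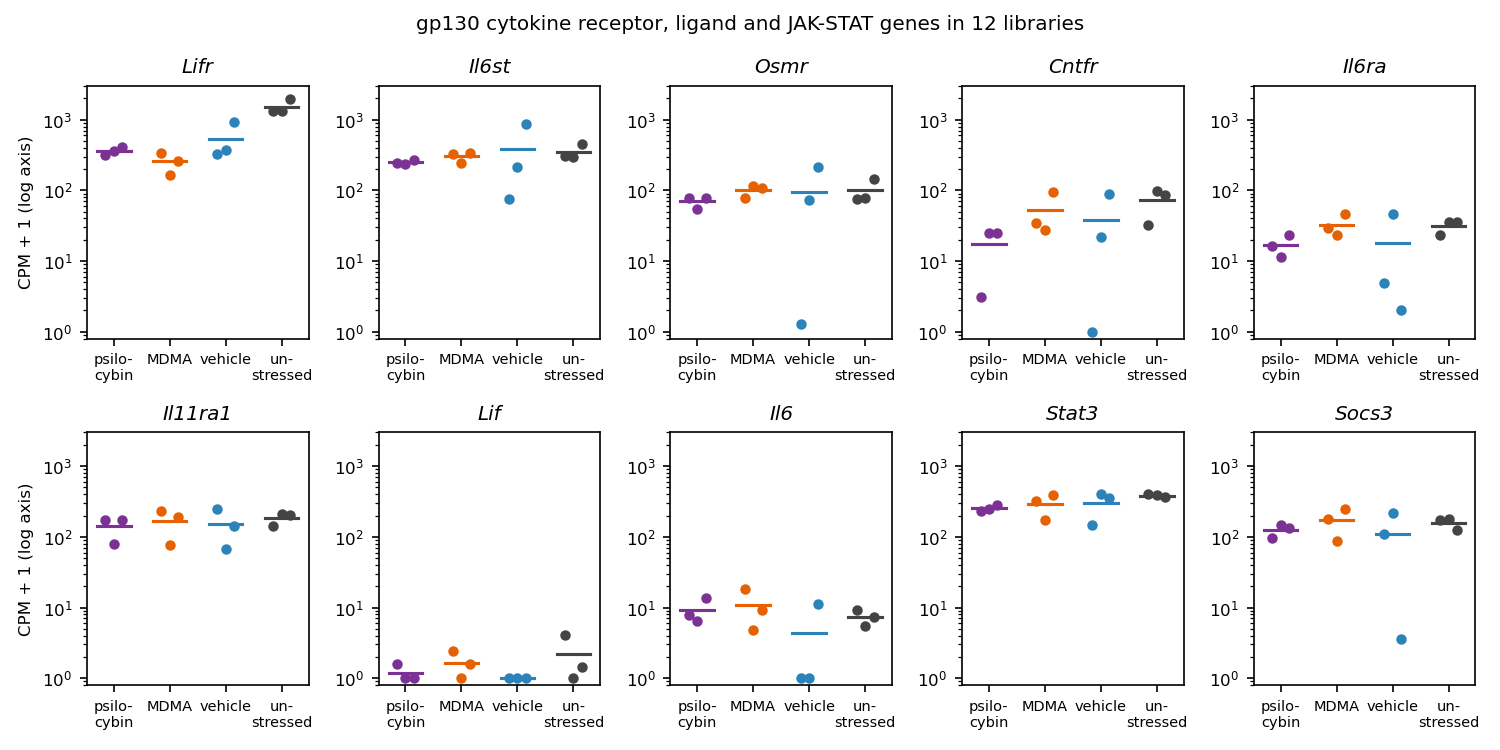
CPM + 1 on a log axis of the 10 members in each library (points) with the group mean (line), groups from left to right psilocybin, MDMA, vehicle and unstressed. The 3 unstressed points of Lifr, at 1316 to 1941 CPM, lie above all stressed ones, and vehicle points reach the floor of the axis for Cntfr, Lif and Il6.

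Il6st, the shared gp130 chain at chr13:112464070-112510086, differed less from unstressed in each stressed group than Lifr did. It reached 245, 236 and 269 CPM in psilocybin, 326, 246 and 336 in MDMA, 75.1, 214 and 877 in vehicle, and 308, 296 and 457 in unstressed libraries. All psilocybin values lay below all unstressed ones, and vehicle held both the lowest and the highest library of the 12. The log2 difference from unstressed was -0.50 ± 0.70 for psilocybin, -0.29 ± 0.70 for MDMA and 0.52 ± 0.70 for vehicle, each smaller than its standard error. Relative to gp130 in the same library, with each gene's CPM divided by its exonic length, Lifr stood at 1.35, 1.58 and 1.56 in psilocybin, 1.08, 0.694 and 0.799 in MDMA, 4.52, 1.77 and 1.09 in vehicle and 2.18, 2.32 and 2.16 in unstressed libraries. Psilocybin libraries thus lay above MDMA libraries in this ratio without overlap, and the unstressed ratios lay above both. The unstressed ratio counts Il6st over fewer bases, so its place against the stressed groups depends on the annotation.

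**Figure D2:**
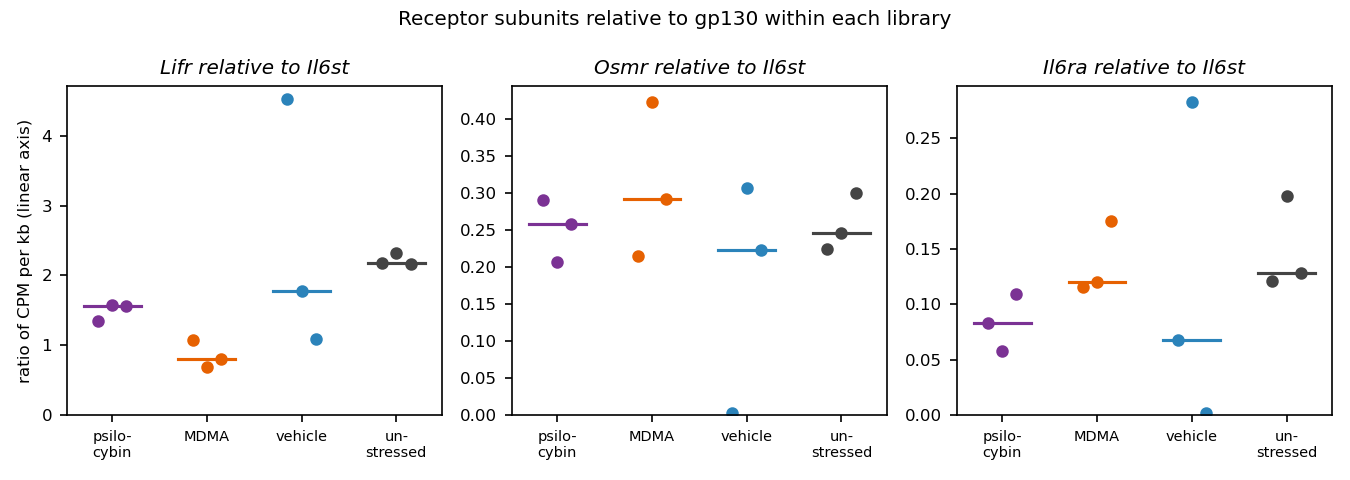
Ratio of CPM per kilobase of Lifr, Osmr and Il6ra to Il6st in each library (points) and the group median (line), on linear axes that start at 0. Lifr relative to Il6st ran from 1.35 to 1.58 in psilocybin, 0.694 to 1.08 in MDMA, 1.09 to 4.52 in vehicle and 2.16 to 2.32 in unstressed libraries.

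Osmr, which pairs with gp130 to receive oncostatin M, is the neighbour of Lifr. It lies at chr15:6813577-6874969 on the minus strand, 215644 bases from Lifr with no other protein-coding gene between them. Osmr stood at 77.6, 53.4 and 75.8 CPM in psilocybin, 76.5, 113 and 107 in MDMA, 0.276, 71.8 and 213 in vehicle and 73.6, 77.1 and 146 in unstressed libraries. All 4 groups overlapped, and the lowest vehicle value was a single count. Where Lifr was 6.32-fold lower in MDMA than in unstressed libraries, the log2 difference of Osmr was -0.04 ± 1.11. This interval, which draws on the spread of all libraries with vehicle among them, is too wide to show whether they differed. In a fit without the vehicle group, added after seeing the data, Osmr stood at 0.05 ± 0.37 and Lifr at -2.58 ± 0.31. The difference between these genes was not tested, and the exons of Osmr differ between the annotations. Osmr relative to Il6st per length held between 0.207 and 0.423 in the 9 libraries outside vehicle.

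Cntfr, the alpha chain for CNTF, and Il11ra1, the alpha chain for interleukin-11, lie side by side at chr4:41657498-41697089 and chr4:41699989-41769474, on opposite strands and 2899 bases apart. Cntfr had 2.07, 23.8 and 23.5 CPM in psilocybin, 33.6, 26.6 and 94.8 in MDMA, 0, 21.1 and 88.5 in vehicle and 31.9, 97.5 and 85.0 in unstressed libraries. Every psilocybin value was below every MDMA and every unstressed value, and psilocybin replicate 1 held 7 counts. The unstressed files counted Cntfr over more bases, and per kilobase of exon psilocybin, at 0.745, 8.57 and 8.46 CPM, overlapped unstressed libraries, at 3.76, 11.5 and 10.03. Its log2 difference was -2.14 ± 1.39 for psilocybin against unstressed and -1.59 ± 1.37 for psilocybin against MDMA. Il11ra1 ran from 77.6 to 174 CPM in psilocybin, 76.6 to 232 in MDMA, 66.9 to 247 in vehicle and 143 to 207 in unstressed libraries, and every pair of groups overlapped. It has a near-identical copy, Il11ra2, which held 1 count in all 12 libraries, so the assignment of reads between the copies is uncertain.

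Il6ra, the interleukin-6 receptor at chr3:89864059-89913196, is the chain of this set that monocytes are known to carry. It had 15.4, 10.4 and 22.1 CPM in psilocybin, 28.6, 22.4 and 44.6 in MDMA, 3.86, 45.8 and 1.02 in vehicle and 22.0, 34.7 and 34.9 in unstressed libraries. Psilocybin lay below MDMA without overlap, with a log2 difference of -0.92 ± 1.02. Vehicle replicates 1 and 3 held 14 and 2 counts, and replicate 2, the shallowest library, held 37.

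The ligands were scarce. Lif, at chr11:4257557-4272514, had 2 counts over the psilocybin libraries, 8 over MDMA, 0 over vehicle and 11 over unstressed libraries, or at most 3.05 CPM in any library. The 0 over vehicle allows up to 0.47 CPM there, from 3 counts over the summed totals, for counting error only, and no difference in Lif was detectable at this depth. Il6, at chr5:30013114-30019981, had 6.81, 5.38 and 12.5 CPM in psilocybin, 17.4, 3.85 and 8.18 in MDMA, 0, 0 and 10.2 in vehicle and 8.14, 4.49 and 6.44 in unstressed libraries. Its values overlapped between all groups, and its log2 difference from unstressed was 0.37 ± 1.36 for psilocybin and 0.53 ± 1.36 for MDMA.

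Stat3, the transcription factor that the receptor kinases phosphorylate, overlapped between most pairs of groups. At chr11:100885098-100939540, it had 229, 246 and 285 CPM in psilocybin, 324, 175 and 386 in MDMA, 148, 410 and 351 in vehicle and 398, 389 and 363 in unstressed libraries. Psilocybin lay below unstressed without overlap, with a log2 difference of -0.59 ± 0.44, and the Stat3 exons counted there are among those that differ between the annotations. Socs3, at chr11:117966079-117970047, had 94.1, 145 and 133 CPM in psilocybin, 176, 87.4 and 247 in MDMA, 108, 218 and 2.56 in vehicle and 170, 180 and 124 in unstressed libraries. Its groups overlapped in every pair, and vehicle replicate 3 held only 5 counts of it beside 1806 of Lifr. Against unstressed its log2 difference was -0.34 ± 0.83 for psilocybin and 0.03 ± 0.83 for MDMA.

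Set out by length, as mean CPM per kilobase of exon, the members fell in a different order in each group. In psilocybin libraries Socs3 led with 42.8 ± 9.11, then Lifr 33.7 ± 4.02, Il11ra1 31.5 ± 12.2, Stat3 26.8 ± 3.06 and Il6st 22.5 ± 1.51. In MDMA libraries Socs3 led with 58.9 ± 27.7 and Lifr was the fifth with 23.7 ± 8.17, behind Il11ra1, Stat3 and Il6st at 37.3, 31.2 and 27.2. In vehicle libraries the top 5 lay between 32.0 and 50.1, with SDs of 14.5 to 38.6. In unstressed libraries Lifr led with 144 ± 32.9, then Il11ra1 94.3 ± 18.3, Stat3 86.6 ± 4.14, Il6st 64.9 ± 16.5 and Socs3 49.5 ± 9.42. Unstressed counts were divided by RefSeq lengths and stressed ones by Ensembl lengths. These were 1954 against 4463 bases for Il11ra1, 4426 against 9455 for Stat3 and 5452 against 11099 for Il6st. The unstressed levels and order against the stressed groups thus depend on the annotation. The other 5 followed in all groups, with Osmr, Cntfr, Il6ra and Il6 at 1.405 to 18.6 and Lif at 0 to 0.178. Among the top 5, neighbours in these orders differed by more than both their SDs in 3 places only: Stat3 over Il6st in psilocybin and in unstressed libraries, and Lifr over Il11ra1 in unstressed libraries.

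None of the 9 tested members passed an adjusted p of 0.05 in any of the 6 comparisons by edgeR's quasi-likelihood test over all genes. Of all 13947 genes, 0.086% passed for psilocybin against unstressed, 0.122% for MDMA against unstressed and 3.43% for vehicle against unstressed. The share was 0.0143% for psilocybin against vehicle (2 genes, and 0 with the replicate number as a block), 0.674% for MDMA against vehicle and 0 for psilocybin against MDMA, where 82 genes had an unadjusted p under 0.05 and DESeq2 and limma voom also called 0. The member list came from this same contrast, so nothing is read from the counts. The median log2 difference of the 9 members from unstressed was -0.52 for psilocybin, -0.23 for MDMA and -0.39 for vehicle, where all genes had medians of 0.01, 0.04 and -0.18. From vehicle it was -0.44 for psilocybin and -0.20 for MDMA, beside 0.31 and 0.24 for all genes, and psilocybin against MDMA gave -0.21 beside 0.02. With DESeq2's size factors the all-gene medians against vehicle became 0.12 for psilocybin and 0.10 for MDMA, and that of vehicle against unstressed 0.00. With limma voom they were 1.45 for psilocybin and 1.29 for MDMA against vehicle and -1.16 for vehicle against unstressed, and with the replicate block 0.63, 0.57 and -0.48.

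Members whose groups did not overlap numbered 4 for psilocybin against unstressed (Lifr, Il6st, Cntfr and Stat3, all lower), where 18.5% of all genes were lower without overlap. MDMA against unstressed and vehicle against unstressed each had 1, Lifr, beside 10.7% and 17.8% of all genes. Psilocybin against MDMA had 2, Cntfr and Il6ra, both lower, beside 8.33% of all genes. Against vehicle no member was without overlap in either drug group, while 23.5% of all genes were so for psilocybin and 18.7% for MDMA.

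**Figure D3:**
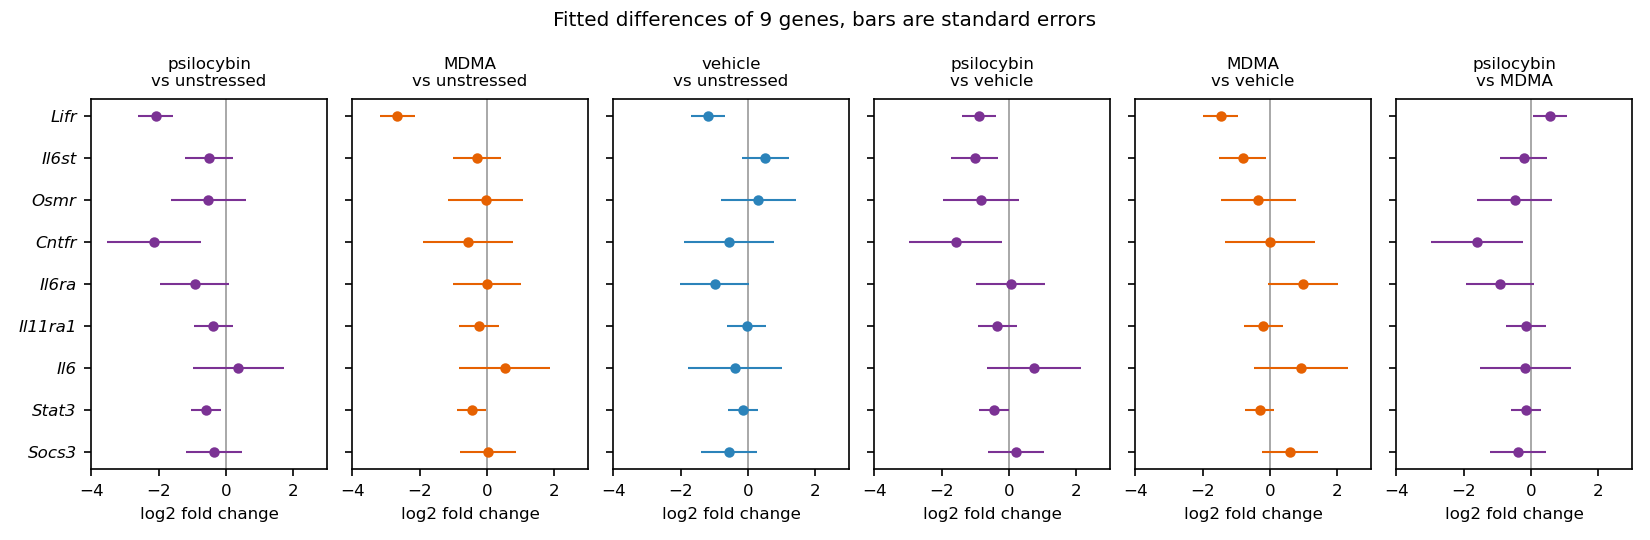
Fitted log2 fold changes (points) and standard errors (bars) of the 9 tested members in each of the 6 comparisons. Lifr lies at -2.08 for psilocybin and -2.66 for MDMA against unstressed, and most other bars reach or cross 0.

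The fit that left out the vehicle group, added after seeing the data, gave Lifr -2.08 ± 0.31 for psilocybin and -2.58 ± 0.31 for MDMA against unstressed. In it Lifr passed the threshold in both comparisons, as the only member, with 5.41% and 3.02% of all genes passing, 3.15% and 1.85% as lower and 2.26% and 1.16% as higher. Against vehicle, leaving out vehicle replicate 2 brought Il6ra past the threshold for psilocybin (log2 2.36) and Il6ra and Lifr for MDMA (3.32 and -1.79). Il6ra also passed for vehicle against unstressed (-3.29). In these comparisons 3535, 3613 and 3671 of all 14456 genes were then called, in this order. Without vehicle replicate 3, Lifr and Il6 passed for vehicle against unstressed (Lifr log2 -2.13), beside 983 of all 14518 genes. Il6 also passed for MDMA against vehicle, beside 280 of all genes, where the 2 vehicle libraries left held 0 counts of it. Which members passed against vehicle thus depended on which vehicle libraries were in the fit.

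Of 55 other genes of the pathway, 45 were tested: 4 of 12 further ligands and receptors of the family, all 23 kinases, transducers, inhibitors and sheddases, and 18 of 20 genes known to respond to STAT3. Only Jak2, a kinase bound to gp130, passed in any of the 6 comparisons by edgeR with all 12 libraries. It fell in vehicle against unstressed libraries, with a log2 difference of -5.02 ± 1.30 (edgeR adjusted p = 0.04899). Jak2 had 29.6, 14.2 and 35.6 CPM in psilocybin, 35.0, 39.5 and 39.5 in MDMA, 0, 0 and 6.14 in vehicle and 85.8, 105 and 92.6 in unstressed libraries. The vehicle libraries lay below all others, and the unstressed ones above all others. Its exons differ between the annotations, 5030 bases in Ensembl and 10846 in RefSeq, and per kilobase the means were 5.26 ± 2.19 in psilocybin, 7.56 ± 0.51 in MDMA, 0.41 ± 0.70 in vehicle and 8.70 ± 0.89 CPM in unstressed libraries. Jak2 no longer passed when vehicle replicate 1 or any unstressed library was left out.

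The inhibitors and transducers next to Jak2 had few counts in vehicle libraries too, without passing by edgeR on all 12 libraries. DESeq2 and voom each called Socs7 and Socs5 for vehicle against unstressed and for MDMA against vehicle. Of all 13947 genes DESeq2 called 1749 and 1337 there, and voom 1407 and 887. DESeq2 also called Socs7 for psilocybin against vehicle, beside 1057 of all genes. Socs7 had 11.8 to 16.9 CPM in psilocybin, 13.7 to 41.6 in MDMA, 0 to 2.48 in vehicle and 24.0 to 37.7 in unstressed libraries. Its log2 difference was 3.42 ± 1.20 for psilocybin and 4.16 ± 1.22 for MDMA against vehicle, and -4.61 ± 1.24 for vehicle against unstressed (edgeR adjusted p = 0.171, 0.0985 and 0.0561). Socs5 averaged 33.1 ± 3.95 CPM in psilocybin, 68.0 ± 24.3 in MDMA, 6.49 ± 7.61 in vehicle and 79.5 ± 27.9 in unstressed libraries, with adjusted p = 0.125 in edgeR for MDMA against vehicle and 0.0868 for vehicle against unstressed. Stat6, which carries interleukin-4 signals, had 72.3 to 92.4 CPM in psilocybin, 31.5 to 141 in MDMA, 3.31 to 23.5 in vehicle and 81.4 to 90.6 in unstressed libraries, with an edgeR adjusted p of 0.182 for psilocybin against vehicle. Il27ra, a receptor that pairs with gp130 for interleukin-27, had 410 of its 414 vehicle counts in vehicle replicate 3. Its log2 difference was 7.03 ± 2.08 for vehicle against unstressed and -5.15 ± 1.88 for psilocybin against vehicle (edgeR adjusted p = 0.0765 and 0.192).

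Among genes known to respond to STAT3 none passed by edgeR with all 12 libraries, while DESeq2 or limma voom called Cebpb and Fos for psilocybin and Lcn2 for MDMA against unstressed. In comparisons with vehicle these methods also called genes of this list, Lcn2 among them. Cebpb, a transcription factor of the acute-phase response, had 5.03, 29.6 and 18.6 CPM in psilocybin, 16.5, 165 and 88.6 in MDMA, 51.1, 89.1 and 68.1 in vehicle and 153, 340.2 and 153 in unstressed libraries. Psilocybin lay below vehicle and unstressed without overlap, with a log2 difference from unstressed of -3.60 ± 0.86 (edgeR adjusted p = 0.167) and from MDMA of -2.39 ± 0.82 (adjusted p = 1). Bcl2l1, which encodes the survival factor BCL-XL, averaged 218 ± 20.9 CPM in psilocybin, 177 ± 29.4 in MDMA, 572 ± 614 in vehicle and 830.2 ± 241 in unstressed libraries. Its log2 difference from unstressed was -1.93 ± 0.68 for psilocybin and -2.29 ± 0.69 for MDMA (edgeR adjusted p = 0.511 and 0.341), and from vehicle -2.15 ± 0.69 for MDMA (adjusted p = 0.12). The exons of Bcl2l1 differ between the annotations, 4586 bases in Ensembl and 8146 in RefSeq. Per kilobase the means were 47.6 ± 4.55 CPM in psilocybin, 38.6 ± 6.41 in MDMA, 124.6 ± 133.8 in vehicle and 101.9 ± 29.6 in unstressed libraries. Fos, an immediate-early gene, averaged 1535 ± 175 CPM in psilocybin, 1262 ± 245 in MDMA, 1121 ± 741 in vehicle and 595 ± 226 in unstressed libraries, with log2 differences from unstressed of 1.39 ± 0.40 and 1.04 ± 0.40 for the drugs (edgeR adjusted p = 0.293 and 0.686). Directions thus differed within the list: Fos was higher and Cebpb and Bcl2l1 lower in psilocybin than in unstressed libraries.

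Lcn2, a neutrophil and acute-phase protein, had 5.92, 6.15 and 14.95 CPM in psilocybin, 36.4, 14.0 and 23.2 in MDMA, 0, 2.48 and 0 in vehicle and 0, 1.497 and 0.888 in unstressed libraries. All drug libraries lay above all others, with an edgeR adjusted p of 0.099 for MDMA against vehicle and 0.328 for MDMA against unstressed, where the log2 difference was 4.78 ± 1.41. The exons of Lcn2 differ between the annotations, 2623 bases in Ensembl and 853 in RefSeq. Per kilobase the means were 3.43 ± 1.96 CPM in psilocybin, 9.35 ± 4.30 in MDMA, 0.31 ± 0.55 in vehicle and 0.93 ± 0.88 in unstressed libraries. DESeq2 called Lcn2 for both drugs against vehicle, and voom for MDMA against vehicle. Summed markers of neutrophils, all 8 of which were measured, ran from 65.4 to 578 CPM in psilocybin, 235 to 1430 in MDMA, 30.6 to 94.2 in vehicle, where Retnlg, Cxcr2 and Mmp8 were at 0, and 8.48 to 25.7 in unstressed libraries. The part of neutrophils in the Lcn2 values was not tested.

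Other genes with the smallest p in a comparison did not pass by edgeR either. Junb, an immediate-early partner of Fos, averaged 807 ± 224 CPM in MDMA and 1907 ± 592 in unstressed libraries (log2 -1.30 ± 0.42, edgeR adjusted p = 0.417). Mcl1, a survival factor, averaged 104 ± 31.4 CPM in psilocybin and 305 ± 204 in vehicle (log2 -1.82 ± 0.68, edgeR adjusted p = 0.201). Between the drugs, Osm, the ligand of Osmr, had 28 counts over psilocybin and 110 over MDMA libraries, and Ctf1, cardiotrophin-1, had 240 and 108, with log2 differences of -1.60 ± 1.25 and 1.47 ± 1.25 (edgeR adjusted p = 1 for both).

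With the vehicle group left out, 6 of these genes passed for psilocybin against unstressed, beside 5.41% of all genes, and 2 for MDMA against unstressed, beside 3.02%. For psilocybin these included Jak2 (log2 -1.82), Bcl2l1 (-1.93) and Cebpb (-3.61), lower, and Fos (1.38) and Lcn2 (3.39), higher, at edgeR adjusted p of 0.004686 to 0.03964. For MDMA they were Bcl2l1 (-2.21) and Lcn2 (4.82), at edgeR adjusted p of 0.002411 and 0.01163. No gene of the lists passed between psilocybin and MDMA in that fit. With all 12 libraries, the 23 kinases, transducers, inhibitors and sheddases had a median log2 difference from unstressed of -0.56 for psilocybin (17 of 23 below 0), -0.24 for MDMA (16 below 0) and -0.47 for vehicle (15 below 0). The 18 STAT3-responsive genes had medians of -0.03 for psilocybin (9 of 18 below 0), 0.36 for MDMA (5 below 0) and -0.16 for vehicle (13 below 0) against unstressed. Over all genes tested these medians were 0.01 for psilocybin, 0.04 for MDMA and -0.18 for vehicle, and no test was made of a list against the rest.

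**Figure D4:**
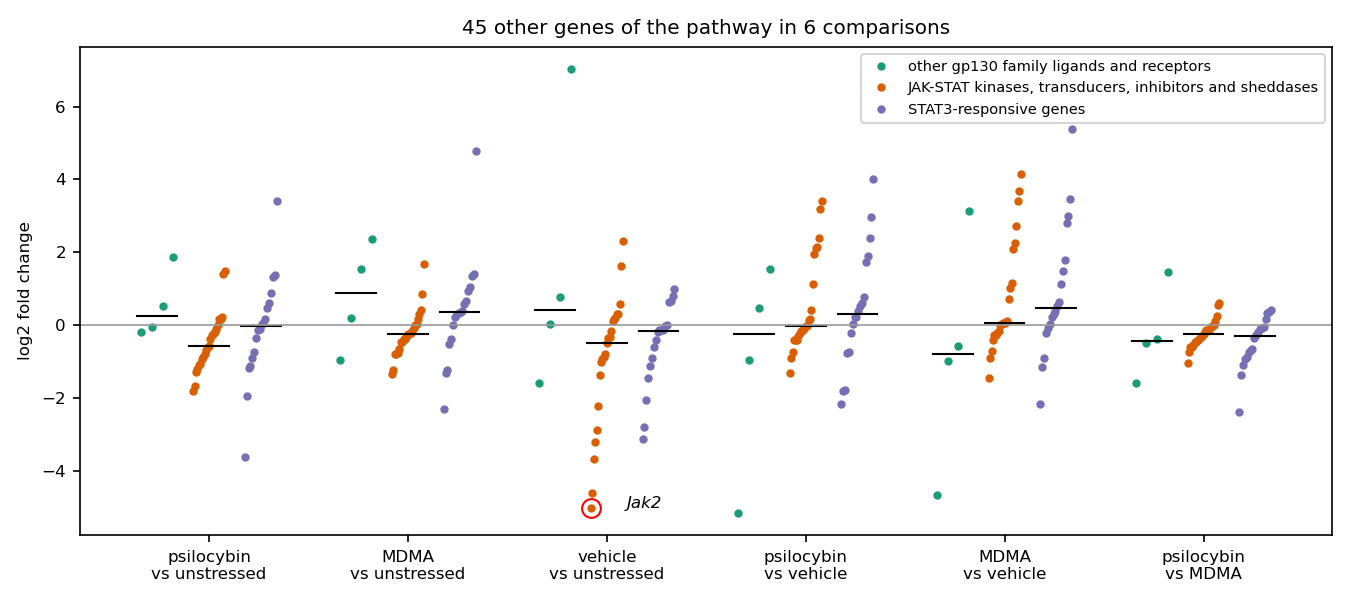
Fitted log2 fold changes of the 45 other tested pathway genes (points, ordered by value) in 3 lists per comparison, with each list's median (line). The only gene past the threshold, Jak2 in vehicle against unstressed at -5.02, is ringed.

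Genes whose levels ran most like a member's were found by the root mean square distance of centred log2 CPM over the 12 libraries, among 11786 genes with a mean of at least 5 CPM. For Lifr the 5 nearest were Slc20a1, a phosphate transporter (distance 0.357), Cox11, a factor for cytochrome oxidase assembly (0.357), Bcl2l1 (0.388), Zfp266, a zinc finger gene (0.415), and Trim8 (0.439), where the median gene stood at 1.84. Slc20a1 averaged 48.4 CPM in psilocybin, 36.8 in MDMA, 89.6 in vehicle and 222 in unstressed libraries, the same order of groups as Lifr. For all 5 the exons differed between the annotations. For Il6st the nearest were Mcoln1, a lysosomal cation channel (0.223), Thra, a thyroid hormone receptor (0.246), Tlnrd1 (0.265), Chtop (0.285) and Dapk1, a death-associated kinase (0.300), with a median of 1.64 over all. For Socs3 they were Csf2ra, the alpha chain of the GM-CSF receptor (0.248), Kat2a, a histone acetyltransferase (0.263), Rnf166 (0.312), Sh3bp5l (0.321) and Prpf19, a splicing factor (0.330), with a median of 1.59.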

How the data were processed

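RNA sequencing libraries of 12 samples labelled as meningeal monocytes were used. Per the labels' protocols, cells came from a magnetic isolation kit and libraries from 5 ng of RNA. The deposited values were raw counts of reads per gene. Per the submitters' processing notes, fastp 0.23.2, STAR 2.7.5c and featureCounts 2.0.1 were used with mm10; per the file headers, the unstressed files were counted over RefSeq exons with no strand or paired option. For the stressed files, annotation release and counting command are not stated in the sources used here. Of 35976 RefSeq genes, 27593 were joined to Ensembl genes through GENCODE vM21, 26669 by symbol and 924 by position (exons overlapping at a Jaccard index of 0.5 or more), which kept 94.8% to 99.1% of the counts in a library. A table of the whole series had 3 columns that match no sample; these were left out.

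CPM are counts per 1e6 of each library's total, and lengths are exonic bases not shared with other genes. Tests were edgeR 4.0.16 quasi-likelihood fits (R 4.3.3) over all 12 libraries with TMM scaling, filterByExpr and Benjamini-Hochberg adjustment at 0.05 over 13947 genes. The script was tested on simulated data. Standard errors derive from the test statistic, and in these fits all 12 libraries, vehicle included, share the estimate of the spread. DESeq2 1.42.0, limma 3.58.1 voom, other scalings and filters and left-out libraries were alternatives. Members and lists were chosen with earlier results of these data known. Besides the members, up to 8 list genes past the threshold were named per comparison, or the 4 with the smallest p where fewer than 4 passed, and the 5 genes nearest to Lifr, Il6st and Socs3. A gene that this rule names is not reported here. Same-numbered psilocybin and vehicle libraries deviated together (correlations across genes of 0.112, 0.213 and 0.115). Psilocybin and MDMA libraries did so too (0.225, 0.0237 and 0.214). The main tests used the group only, and a replicate block over all 12 libraries was an alternative. A pairing by number rests on the data alone, since no label says what the number marks.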

Additional observations from a re-analysis of the deposited data

How the results depend on the processing

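No member passed in any comparison by edgeR with TMM scaling and the filter on all 12 libraries. For MDMA against unstressed 1 member, Lifr, passed with DESeq2, limma voom, no filter on low counts, only the 6 libraries compared, or the vehicle group left out, and for psilocybin against unstressed 1, Lifr, with DESeq2, voom, only the 6 libraries, or the vehicle group left out. For vehicle against unstressed 1, Lifr, passed with voom and with vehicle replicates 1 and 3 both left out, where the lone vehicle library, the shallowest, is assumed to vary like the other groups. Lifr also passed there, with Il6, without vehicle replicate 3 alone. Leaving out 1 library at a time gave 0 to 1 members for psilocybin against vehicle, 0 to 2 for MDMA against vehicle and 0 to 2 for vehicle against unstressed. Of the other pathway genes, MDMA against unstressed gave 1 with DESeq2, 1 with voom, 2 with only the 6 libraries and 2 without the vehicle group, and psilocybin against unstressed gave 1 with DESeq2, 1 with voom, 7 with only the 6 libraries and 6 without the vehicle group. MDMA against vehicle gave 5 with DESeq2 and 5 with voom, and psilocybin against vehicle gave 2 with DESeq2 and 1 with voom. Vehicle against unstressed, 1 in the fit of all libraries, gave 6 with DESeq2, 4 with voom, 2 with no filter, 4 without vehicle replicates 1 and 3, and 0 with DESeq2's size factors, a mean of at least 5 CPM, only genes with nearly the same exons, only the 6 libraries compared, or the replicate block. Leaving out 1 library gave 0 to 13 for psilocybin against vehicle, 0 to 13 for MDMA against vehicle and 0 to 15 for vehicle against unstressed. The highest came each time without vehicle replicate 2, where in this order 3535, 3613 and 3671 of all 14456 genes passed. Of all 13947 genes DESeq2 called 1749 for vehicle against unstressed, and 1337 for MDMA and 1057 for psilocybin against vehicle. Voom called 1407, 887 and 436. Against unstressed DESeq2 called 219 for MDMA and 246 for psilocybin, and voom 151 and 121. With only the 6 libraries 238 of 13454 genes passed for MDMA and 1381 of 13372 for psilocybin against unstressed. Genes with nearly the same exons leave out Jak2 by construction; the cause of the other changes was not tested. The replicate block, 0 members in each comparison, changed no call of a member or listed gene other than that of Jak2. Over all genes the calls went from 479 to 10 for vehicle against unstressed and from 94 to 0 for MDMA against vehicle. For psilocybin and MDMA against unstressed they went from 12 to 5 and from 17 to 5. The block was fitted over all 12 libraries, so it tied same-numbered libraries of every group. By the labels, same-numbered libraries of any groups share only a number, with correlations of -0.109 to 0.318 over all pairs of groups. Over 759 alternative fold changes of the 9 tested members, 733 moved by under 1 SD of the replicates, which is wide in vehicle. For vehicle against unstressed Osmr, 0.31 with all libraries, ran from -2.70 to 0.89 and Cntfr, -0.56, from -3.15 to 0.03, without counting as moved. Lifr stayed below 0 in all 15 settings for each stressed group against unstressed. Counting error limits Lif and, in vehicle libraries, Il6, Il6ra and Jak2.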
